A study of Mus musculus with 18 samples.

Results

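The cluster that begins with miR-322 and ends with miR-450 is a run of microRNA (miRNA) hairpins on the mouse X chromosome. The set described here holds 6 mature miRNAs of this cluster, mmu-miR-322-5p, mmu-miR-322-3p, mmu-miR-503-5p, mmu-miR-351-5p, mmu-miR-542-3p and mmu-miR-450a-5p, of 758 miRNAs listed in liver small RNA libraries. They were chosen by name as the arms of 1 cluster, with the HF and LF values of some of them known when the choice was made, so their difference between those groups is a description and carries no test. All animals were wild-type C57BL/6J mice whose regimens began at 5 weeks of age and whose livers were taken at 62 weeks. Each of 6 groups has 3 libraries. They are labelled LF and HF, each alone, with CR or with Ex. None of these is spelled out in the labels, and they are taken here to mean a low-fat or a high-fat diet, calorie restriction and exercise. The labels do not say whether replicates are separate animals, so p-values reflect the spread of these samples alone, and that spread could be technical.

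A miRNA is cut from a hairpin whose 5p and 3p arms can each be loaded into an Argonaute protein, where the seed near the 5′ end of the loaded arm pairs with target mRNAs. The cluster is the mouse counterpart of the human miR-424 and miR-503 locus. Its miR-322-5p and miR-503-5p belong to the wider miR-15/16 group of miRNAs, which is known for lowering cyclins and other cell cycle proteins. Arms cut from 1 primary transcript can still reach different levels, because cutting, loading and turnover act on each separately.

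The mature sequences are shown because the seeds split the cluster into unrelated targeting groups. They are from RefSeq (GRCm38.p6), 5′ to 3′, with the seed, bases 2 to 8, in capitals. The first set holds the arms that begin with the AGCAGC seed core, with miR-15a-5p and miR-16-5p from other chromosomes for comparison.
miR-322-5p: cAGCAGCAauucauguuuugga
miR-503-5p: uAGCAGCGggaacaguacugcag
miR-15a-5p: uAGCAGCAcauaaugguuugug
miR-16-5p: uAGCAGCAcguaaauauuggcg

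The second set holds miR-351-5p with the miR-125 pair whose seed it shares.
miR-351-5p: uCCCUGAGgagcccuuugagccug
miR-125a-5p: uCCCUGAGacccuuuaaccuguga
miR-125b-5p: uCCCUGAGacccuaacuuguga

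The remaining members have seeds found in no other miRNA among the 606 listed ones that have a sequence in the RefSeq table.
miR-322-3p: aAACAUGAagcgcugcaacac
miR-542-3p: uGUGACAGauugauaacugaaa
miR-450a-5p: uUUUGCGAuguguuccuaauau

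Among these 606 miRNAs, miR-322-5p shared its whole seed with 4 others, miR-15a-5p, miR-15b-5p, miR-16-5p and miR-195a-5p. The listed miR-497-5p, which had no sequence matched by name, is counted as another relative below because its name places it in the same group. miR-503-5p shared only bases 2 to 7 with those and with miR-322-5p, and the 22 bases that can be aligned from the 5′ ends of miR-322-5p and miR-503-5p differ at 11 positions. miR-351-5p shared its seed with 2 others, miR-125a-5p and miR-125b-5p. The mature miR-450a-5p is the same from Mir450-1 and Mir450-2, so its value cannot be divided between these hairpins.

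The 7 hairpins lie on the minus strand of chromosome X within 6353 bases, from 53047997 to 53054349 (GRCm38.p6). Mir322 (53054255 to 53054349) comes first along the strand, followed by Mir503 (53053984 to 53054054) after a gap of 200 bases and Mir351 (53053255 to 53053353) after 630 bases. A gap of 3767 bases separates these from Mir542 (53049403 to 53049487). Mir450-2 (53048299 to 53048367), Mir450-1 (53048154 to 53048244) and Mir450b (53047997 to 53048078) follow. The GENCODE annotation places the long intergenic non-coding RNA Gm28730 (53051194 to 53053159) in the gap between Mir351 and Mir542, on the same strand. No protein-coding gene of that annotation overlaps a hairpin, and the nearest is Plac1 (53069995 to 53240111).

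The values are RPM as deposited, reads of a miRNA scaled to a common library total. Reads on listed miRNAs ran from 2.38 M (megareads) in HF+Ex replicate 1 to 10.5 M in LF+Ex replicate 2, and the HF+CR libraries were shallow (2.90 to 5.50 M). The hepatocyte miRNA miR-122-5p stood at 201007 to 292388 RPM in every library. Some libraries stood apart. LF replicate 1 and HF+CR replicate 3 had the highest sums of 7 leukocyte and Kupffer cell miRNAs (8072 and 9127 RPM) and of 5 epithelial miRNAs (5663 and 7989 RPM), and LF+CR replicate 1 and HF+CR replicate 1 the highest sums of 4 pancreatic miRNAs (348 and 138 RPM).

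All 6 members were detected in all 18 libraries, each on 99 to 6360 implied reads. miR-322-5p was the main product. Its mean was 566 ± 88.3 RPM (SD, n = 18), rank 81 of 758, and it made up 56.6 to 72.1% of the summed RPM of the 13 listed arms of the cluster. miR-351-5p averaged 90.9 RPM, miR-322-3p 61.0 RPM, miR-542-3p 48.7 RPM, miR-503-5p 42.7 RPM and miR-450a-5p 41.6 RPM. The 13 arms together were 679 to 1096 RPM of a library, so the cluster is a minor part of liver miRNA.

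**Figure D1:**
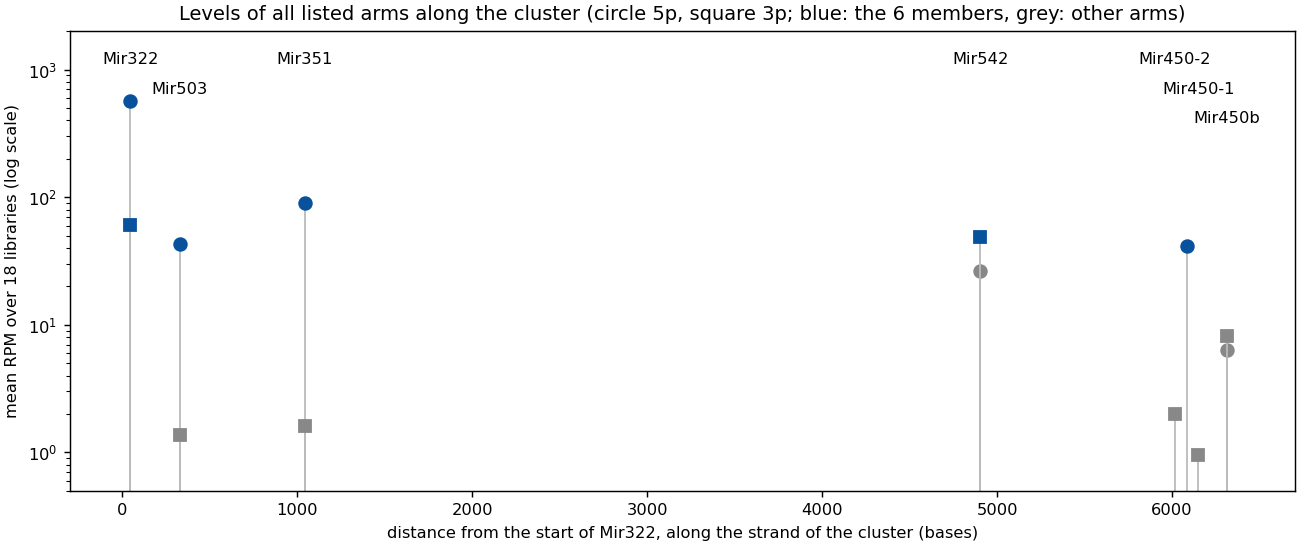
Mean RPM over 18 libraries (log scale) of the 13 listed arms against the distance of their hairpins from the start of Mir322, along the strand. Circles are 5p arms, squares 3p arms, blue the 6 members and grey the other arms; miR-450a-5p is drawn between its 2 hairpins. The highest point is miR-322-5p at 566 RPM, and the members beyond the long gap lie at 41.6 and 48.7 RPM.

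The other 7 arms were lower than the members. miR-542-5p, the partner arm of miR-542-3p, averaged 26.3 RPM, miR-450b-3p 8.09 RPM and miR-450b-5p 6.40 RPM. The arms miR-450a-2-3p, miR-351-3p, miR-503-3p and miR-450a-1-3p averaged 0.947 to 2.01 RPM, were listed at 0 in up to 2 libraries and were not tested. A floor of 3 reads is 0.529 to 1.003 RPM in the HF+CR libraries that hold these zeros.

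mmu-miR-322-5p, the most abundant arm, was lowest in HF+CR. In replicate order its level was 544, 496 and 555 RPM in LF, 711, 619 and 536 RPM in LF+CR, and 525, 528 and 491 RPM in LF+Ex. It was 553, 669 and 644 RPM in HF, 384, 453 and 520 RPM in HF+CR, and 635, 622 and 709 RPM in HF+Ex. The HF+CR libraries lay below every HF, LF+CR and HF+Ex library, while their highest value overlapped LF and LF+Ex. In the order of the group means, HF+Ex, HF, LF+CR, LF, LF+Ex and HF+CR, every neighbouring pair overlapped.

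mmu-miR-503-5p had another pattern, with its 3 lowest group means in the LF diet groups. Its level was 33.8, 27.0 and 26.8 RPM in LF, 30.7, 24.1 and 39.5 RPM in LF+CR, and 39.8, 35.8 and 48.7 RPM in LF+Ex. It was 48.2, 64.5 and 49.6 RPM in HF, 39.8, 39.7 and 58.2 RPM in HF+CR, and 60.2, 54.5 and 47.2 RPM in HF+Ex. The 3 LF libraries lay below all 9 HF diet libraries, and LF+Ex overlapped HF+CR. Some LF and HF values were known at the choice, and the share of all tested miRNAs separated likewise was not counted. The separation is a description only.

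mmu-miR-351-5p, which carries the miR-125 seed, also had its 3 lowest group means in the LF diet groups. Its level was 68.9, 58.8 and 78.8 RPM in LF, 54.1, 69.2 and 84.5 RPM in LF+CR, and 91.6, 65.0 and 84.3 RPM in LF+Ex. It was 94.2, 95.7 and 112 RPM in HF, 98.9, 89.2 and 121 RPM in HF+CR, and 159, 105 and 106 RPM in HF+Ex. The HF and LF+Ex groups, neighbours in the order of means, did not overlap, and the other neighbours did. This too is a description, with no share of all tested miRNAs counted beside it.

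mmu-miR-450a-5p, from the far end of the cluster, was tightest in LF, with 31.1, 31.4 and 30.9 RPM. It was 46.3, 34.2 and 30.9 RPM in LF+CR and 39.3, 39.4 and 46.3 RPM in LF+Ex. It was 46.0, 65.0 and 42.4 RPM in HF, 49.3, 51.8 and 48.8 RPM in HF+CR, and 49.999, 30.6 and 34.7 RPM in HF+Ex. Here the HF+CR libraries were uniform and lay above all LF+Ex libraries, and HF+Ex held the lowest library of all. How many of all tested miRNAs separate HF+CR from LF+Ex was not counted.

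mmu-miR-322-3p ranged from 34.5 RPM (HF+CR replicate 1) to 95.1 RPM (HF+Ex replicate 1), with group means from 42.8 ± 11.3 RPM in LF+CR to 80.6 ± 13.5 RPM in HF+Ex (SD, n = 3). miR-542-3p ranged from 27.7 RPM (HF+CR replicate 1) to 64.2 RPM (HF+Ex replicate 2), with the lowest group mean in HF+CR (41.7 ± 13.6 RPM) and the highest in HF+Ex (53.5 ± 12.2 RPM, SD, n = 3). For both, all neighbours in the order of means overlapped. Of the variance of log2(RPM + 1), the share lying between groups was 23.5% for miR-542-3p and 60.7 to 73.5% for the other 5 members, beside a median of 49.7% over the 351 tested miRNAs. The groups include LF and HF, where some values were known at the choice, so these shares are a description only.

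**Figure D2:**
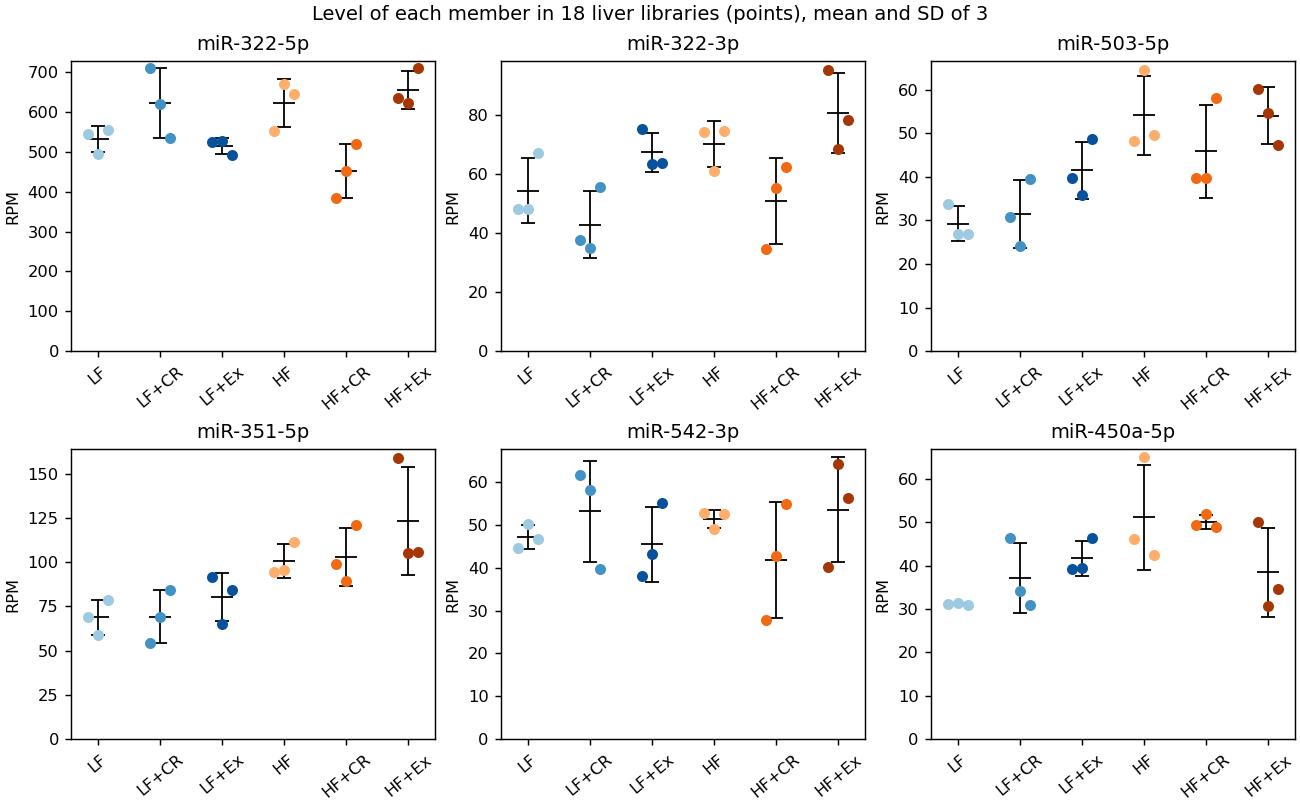
RPM of each member in every library, by group, with the mean and SD of 3 libraries; each vertical axis starts at 0. miR-322-5p is lowest in HF+CR (384 to 520 RPM), while miR-503-5p and miR-351-5p sit higher in the HF diet groups.

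Without a regimen, all 6 members were higher in HF than in LF in the mean, where 57.5% of the 351 tested miRNAs were. The log2(RPM + 1) difference was 0.86 for miR-503-5p, 0.67 for miR-450a-5p, 0.54 for miR-351-5p, 0.37 for miR-322-3p, 0.22 for miR-322-5p and 0.12 for miR-542-3p. miR-503-5p, miR-450a-5p and miR-351-5p did not overlap between the groups, all higher in HF. Of the tested miRNAs 10.5% did so in that direction. Since members were chosen with some of these values known, no test is given and nothing is read from the count.

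The diet difference under calorie restriction or exercise uses other libraries. It was tested with limma on log2(RPM + 1) across 351 miRNAs, with Benjamini-Hochberg adjustment and a call at an adjusted p below 0.05. Under calorie restriction, HF+CR against LF+CR, 0 of 6 members were called, beside 10.5% of all tested miRNAs, with 3 members at an unadjusted p below 0.05, where 31.1% of all tested miRNAs were. By limma voom on the implied reads 24 miRNAs were called in all, none of them a member. The members went in both directions. miR-322-5p was 0.46 lower (SE 0.15, adjusted p = 0.0651 by limma), with the 3 HF+CR libraries below the 3 LF+CR libraries.

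miR-351-5p was 0.58 higher (SE 0.22, limma adjusted p = 0.0960) and miR-503-5p 0.54 higher (SE 0.22, limma adjusted p = 0.116), again without overlap. miR-450a-5p was 0.44 higher (SE 0.21, limma adjusted p = 0.164), also without overlap, so 3 members were higher without overlap, beside 23.9% of the tested miRNAs, and 1 lower, beside 3.7%. miR-322-3p (0.23) and miR-542-3p (-0.37) overlapped between the groups. The median of all tested miRNAs was 0.38 in this comparison. When libraries were rescaled by size factors, which brought that median to 0.05 and the calls from 32 higher and 5 lower to 6 and 19, miR-322-5p was 0.79 lower and was called (limma adjusted p = 0.00797), while the higher members shrank to 0.25 (miR-351-5p), 0.21 (miR-503-5p) and 0.11 (miR-450a-5p), and miR-322-3p turned to -0.10. Without HF+CR replicate 3 miR-322-5p was 0.57 lower and called (limma adjusted p = 0.0420), and without LF+CR replicate 3 it was 0.56 lower and called (limma adjusted p = 0.0435).

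Under exercise, HF+Ex against LF+Ex, 0 of 6 members were called by limma, beside 8.26% of all tested miRNAs, with 2 members at an unadjusted p below 0.05, where 29.1% of all tested miRNAs were. Here limma voom called 41 miRNAs and no member. miR-351-5p was 0.60 higher (SE 0.22, limma adjusted p = 0.0827) and miR-322-5p 0.35 higher (SE 0.15, limma adjusted p = 0.143). Neither overlapped between the groups, and 32.5% of the tested miRNAs were higher in this way. miR-503-5p (0.38), miR-322-3p (0.25), miR-542-3p (0.22) and miR-450a-5p (-0.14) overlapped. The median of all tested miRNAs was 0.22, and rescaling moved the calls from 21 higher and 8 lower to 14 and 20. Rescaled, miR-322-5p was 0.12 higher (limma adjusted p = 0.682) and miR-351-5p 0.37 higher (limma adjusted p = 0.182).

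Averaged over the restricted and exercised groups, 2 of 6 members passed the test, both higher with the HF diet. Of all tested miRNAs 25.1% were called higher, 2.56% lower and 27.6% in all, so the members' count is near the background share. miR-351-5p was 0.59 higher (SE 0.15, 95% interval 0.26 to 0.91, limma adjusted p = 0.0191) and miR-503-5p 0.46 higher (SE 0.15, 0.13 to 0.78, limma adjusted p = 0.0397). The other 4 lay between -0.07 and 0.24 with intervals that include 0. The median of the members was 0.19 and that of all tested miRNAs 0.27.

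Both calls were lost when the libraries were rescaled by size factors, to 0.31 (limma adjusted p = 0.0968) for miR-351-5p and 0.18 (limma adjusted p = 0.307) for miR-503-5p. The rescaling moved the median of all miRNAs from 0.27 to 0.01, and the split of calls from 88 higher and 9 lower to 28 higher and 29 lower. Without LF+CR replicate 1 neither was called, at 0.51 (limma adjusted p = 0.0530) and 0.45 (limma adjusted p = 0.0760). miR-503-5p was also not called without any 1 of LF+CR replicate 2, LF+Ex replicate 1 or 2, HF+CR replicate 3, or HF+Ex replicate 1 or 2 (limma adjusted p 0.0662 to 0.0941). Without LF+CR replicate 1 and HF+CR replicate 1, 0 members and 1 miRNA in all were called by limma. The 3 shallowest libraries were HF+Ex replicate 1, HF+CR replicate 3 and HF+CR replicate 1. Leaving them out keeps 1 HF+CR library, so no count of calls is given for that fit.

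miRNAs of some other cell types also differed in this diet comparison. The sum of the 7 leukocyte and Kupffer cell miRNAs was 2192 to 2997 RPM in LF+CR against 3519 to 9127 RPM in HF+CR. It was 3036 to 4114 RPM in LF+Ex against 5142 to 7185 RPM in HF+Ex, and 5 of 7 were called higher. Of 4 endothelial miRNAs 2, and of 8 stellate and mural cell miRNAs 2, were called higher, beside 25.1% of all tested miRNAs. None of these 19 markers was at 0 in any library. Of 5 epithelial and 4 erythroid miRNAs 0 were called. Of 6 hepatocyte miRNAs 1 was called lower, and of 3 tested neuronal miRNAs 1 was called higher. Read depth was lower in HF+CR (2.90 to 5.50 M) than in LF+CR (5.12 to 7.70 M) in all but 1 library, and 2.38 to 8.69 M in HF+Ex against 7.12 to 10.5 M in LF+Ex. The sum of 4 fragment-like entries was also higher in HF+CR (112 to 300 RPM) than in LF+CR (29.9 to 34.5 RPM). This sum is nearly all miR-690, which averaged 74.8 RPM. miR-5099, miR-5100 and miR-2137 averaged 0.635, 0.170 and 0.0171 RPM and were at 0 in 2, 10 and 17 libraries. The highest sum of all was in HF+Ex replicate 1 (389 RPM), in a group with a median of 14.6 RPM. How far that library sets the following r values was not tested. Over 18 libraries, Pearson r with the log2 of the fragment-like sum was 0.675 for miR-450a-5p, 0.549 for miR-351-5p and 0.376 for miR-503-5p. It was -0.553 for miR-542-3p, -0.252 for miR-322-5p and -0.059 for miR-322-3p. For the leukocyte and Kupffer cell sum r was 0.758 for miR-503-5p, 0.692 for miR-351-5p and -0.024 to 0.436 for the rest. For the endothelial sum it was 0.715 for miR-503-5p, 0.698 for miR-351-5p, 0.676 for miR-322-3p and -0.163 to 0.0805 for the rest. For log2 depth it was -0.66 for miR-351-5p, -0.555 for miR-450a-5p, -0.513 for miR-503-5p and -0.041 to 0.363 for the rest. The part of these cell types, of depth and of RNA quality in the members' differences was not tested. In bulk liver, fewer cells of a type and less RNA per cell cannot be told apart.

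**Figure D3:**
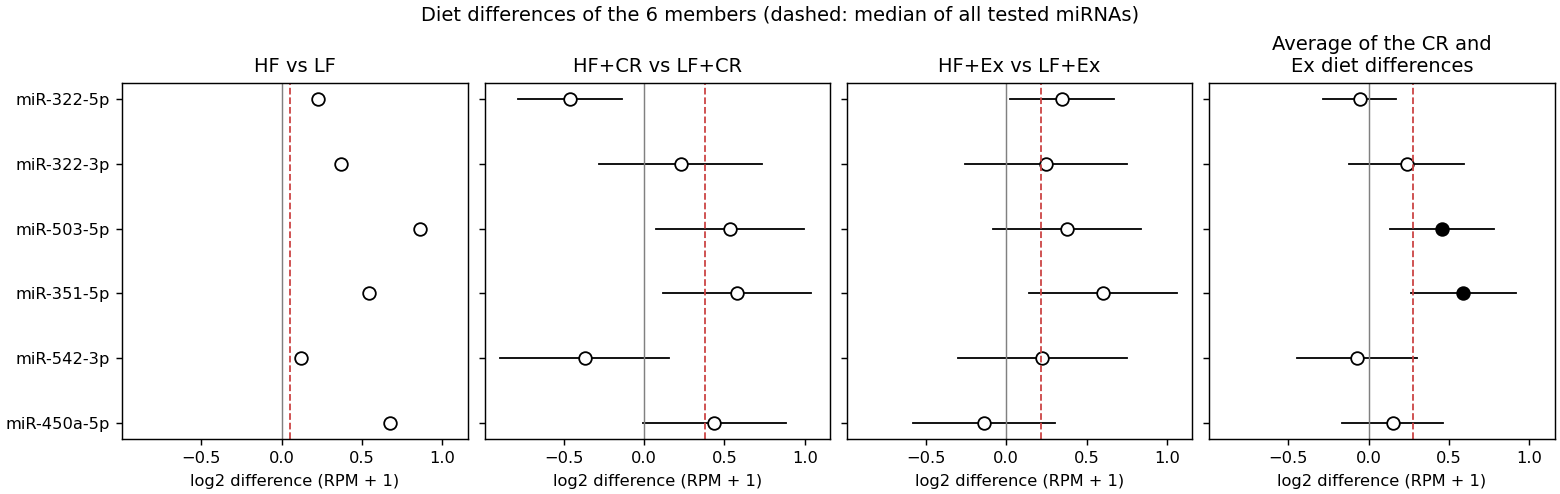
Log2 difference of RPM + 1, HF diet minus LF diet, of the 6 members without a regimen, under calorie restriction, under exercise and averaged over the last 2; lines are 95% intervals, filled points have a limma adjusted p below 0.05, and the red dashed line is the median of 351 miRNAs. HF vs LF has no interval because it was not tested. miR-322-5p lies at -0.46 under calorie restriction and 0.35 under exercise; miR-351-5p lies at 0.54 to 0.60 in every panel.

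Within a diet, no member was called for calorie restriction or exercise. Each of these comparisons uses the LF or HF libraries, where some member values were known at the choice. The members' values and counts here are therefore a description, and nothing is read from them. For LF+CR against LF, 6.27% of all tested miRNAs were called, for HF+CR against HF and LF+Ex against LF 0%, and for HF+Ex against HF 0.855%. The counts of all miRNAs at an unadjusted p below 0.05 were 101, 53, 41 and 30, and limma voom called 30, 0, 1 and 2. In LF+CR against LF, rescaling moved the calls from 2 higher and 20 lower to 7 and 7. The members lay between -0.35 and 0.23 in LF+CR against LF, -0.49 and 0.03 in HF+CR against HF, -0.07 and 0.49 in LF+Ex against LF, and -0.41 and 0.27 in HF+Ex against HF. Rescaled, the ranges were -0.03 to 0.55 in LF+CR against LF, with miR-322-5p at 0.55 (limma adjusted p = 0.0612), -0.44 to 0.08 in HF+CR against HF, 0.11 to 0.66 in LF+Ex against LF, and -0.40 to 0.28 in HF+Ex against HF. Before rescaling, 2 of the 24 values had an unadjusted p below 0.05. These were miR-322-5p in HF+CR against HF (-0.47, SE 0.15, limma adjusted p = 0.154), the 1 member lower without overlap, beside 9.4% of tested miRNAs, and miR-503-5p in LF+Ex against LF (0.49, SE 0.22, limma adjusted p = 0.360). In LF+Ex against LF, miR-503-5p and miR-450a-5p were the 2 members higher without overlap, beside 6.27%. Without HF+CR replicate 3 the first was -0.57 and called (limma adjusted p = 0.0471).

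The tests of whether a regimen's effect differed between diets called 0 members, beside 0.855% of all tested miRNAs for calorie restriction and 0.855% for exercise. Both contain the difference between HF and LF, where some member values were known at the choice. Nothing is therefore read from the members' values in these tests. The most negative member values were miR-322-5p for calorie restriction, -0.68 (SE 0.22, limma adjusted p = 0.191), and miR-450a-5p for exercise, -0.81 (SE 0.29, limma adjusted p = 0.186). The diet difference itself, compared between calorie restriction and exercise, also called 0 members, beside 2.85% of all tested miRNAs; this comparison was added after the values were seen.

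Ratios of members within 1 library do not depend on how the library was scaled. The ratio of miR-322-5p to miR-503-5p was 16.1 to 20.7 in LF and 13.6 to 25.7 in LF+CR, against 10.1 to 14.7 in LF+Ex, 10.4 to 12.98 in HF, 8.95 to 11.4 in HF+CR and 10.6 to 15.035 in HF+Ex. The LF libraries thus lay above all 12 libraries other than LF and LF+CR, a description only, since some LF and HF values were known at the choice. The ratio of miR-322-5p to miR-351-5p was 6.34 to 13.1 in LF+CR and 3.88 to 5.08 in HF+CR, with no overlap. By contrast, the ratio of miR-322-5p to miR-542-3p had group means between 11.3 and 12.7, and all groups overlapped.

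The arms of the Mir322 hairpin did not keep 1 ratio. miR-322-5p was 6.68 to 11.3 times the level of miR-322-3p in 16 libraries, and 18.9 and 17.7 times in LF+CR replicates 1 and 2. Over all 18 libraries the log2 ratio was 3.25 ± 0.41 (SD). The 3p level was low in those LF+CR libraries (37.6 and 34.98 RPM) and the 5p level high (711 and 619 RPM). LF+CR replicate 1 is also the library highest in pancreatic miRNAs (348 RPM), while LF+CR replicate 2 had 4.25 RPM of them. HF+CR replicate 1, with 138 RPM, had a ratio of 11.1. The part of pancreatic miRNAs in the ratio was not tested.

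**Figure D4:**
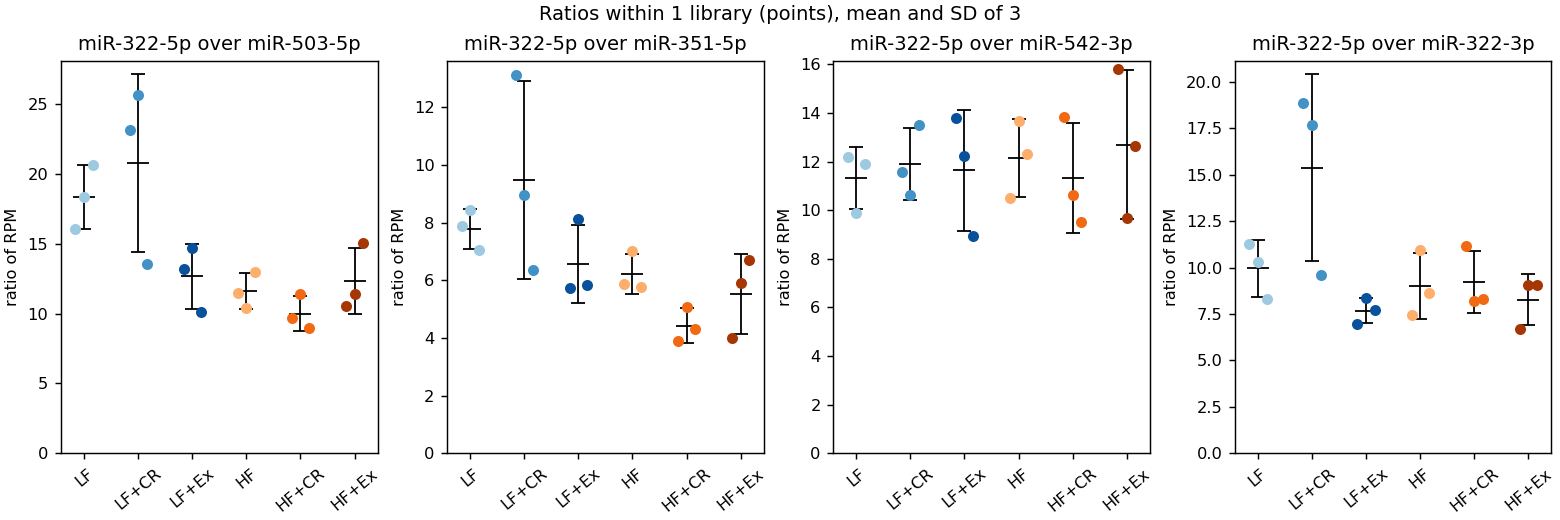
Ratio of miR-322-5p to 4 other members within each library, with the mean and SD of 3 libraries; axes start at 0. The ratio to miR-542-3p has group means from 11.3 to 12.7, while the ratios to miR-503-5p and miR-351-5p have their highest group means in LF+CR and their lowest in HF+CR.

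The members did not move as 1 unit over the 18 libraries. Of the 15 pairs, 12 had a Pearson r above 0 and the median r was 0.17 (-0.17 to 0.80), beside a median of 0.16 with 65.8% above 0 over the pairs of all 351 tested miRNAs. These values share libraries and group differences and are given as a description. Spearman's rho had a median of 0.16. After group means were removed the median r was 0.10, beside 0.15 for all pairs, and after rescaling it was 0.15, beside -0.01 for all pairs. With both steps it was 0.07. Leaving out, for each pair, the 2 libraries farthest from the median of its first-listed member only gave a median of 0.34.

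The pair with the highest r was miR-503-5p and miR-351-5p, neighbouring hairpins with unrelated seeds, at r = 0.80 (rho 0.83) over n = 18 libraries. It was 0.48 with group means removed and 0.01 when the libraries were also rescaled. miR-322-3p and miR-503-5p had r = 0.62 (rho 0.56), which became 0.36 and 0.12 by the same steps. miR-503-5p also had r = 0.57 (rho 0.49) with miR-450a-5p, which became 0.29 and 0.15.

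miR-322-3p and miR-351-5p had r = 0.65 (rho 0.58), which became 0.63 with group means removed and 0.53 when also rescaled. miR-322-5p had r = 0.66 (rho 0.48) with miR-542-3p, at the other side of the long gap, which became 0.55 and 0.69 by those steps. It was 0.35 without the 2 libraries farthest from the median of miR-322-5p. miR-450a-5p had r of -0.17 to 0.36 with the members other than miR-503-5p.

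miR-322-5p had r = 0.17 (rho 0.16) with miR-503-5p, its nearest neighbour and seed relative, and 0.07 (rho 0.16) with miR-351-5p. Arms of the same hairpin had r = 0.30 (rho 0.34) for miR-322-5p and miR-322-3p, and 0.41 (rho 0.42) for miR-542-3p and miR-542-5p. miR-450b-3p and miR-450b-5p had r = -0.37 (rho -0.35) at 4.31 to 12.2 RPM. The highest r among the arms was not between arms of 1 hairpin.

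**Figure D5:**
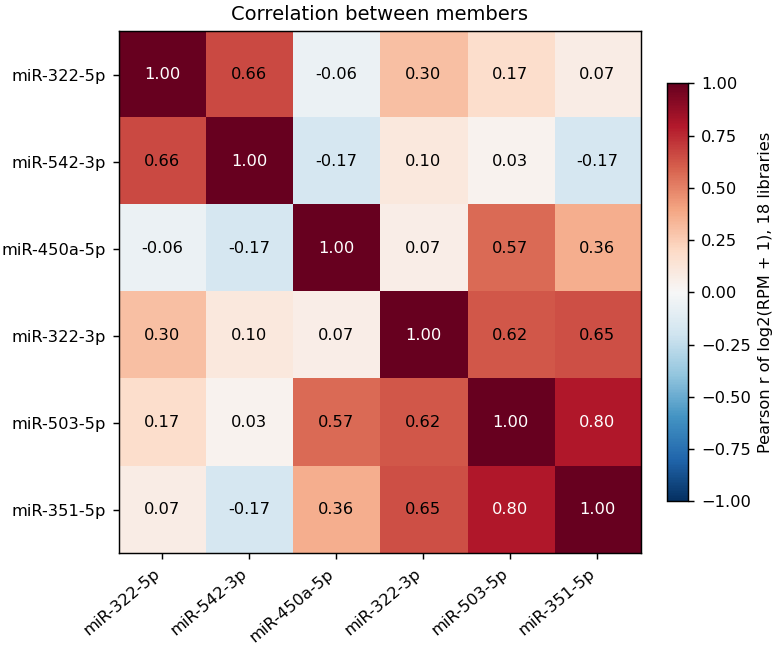
Pearson r of log2(RPM + 1) between the 6 members over 18 libraries, from -1 (blue) to 1 (red). The block of miR-322-3p, miR-503-5p and miR-351-5p has r of 0.62 to 0.80, and miR-322-5p reaches 0.66 only with miR-542-3p.

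The 5 tested miRNAs outside the cluster nearest to the mean standardised member profile were miR-5126 (r = 0.84), miR-212-3p (0.83), miR-205-5p (0.81), miR-132-3p (0.81) and miR-155-5p (0.79), of 342 candidates over 18 libraries. After rescaling their r was 0.61, 0.23, 0.27, 0.26 and 0.18. Their mean levels were 9.46, 18.55, 41.99, 3.76 and 108 RPM, so miR-132-3p lay in the mean below the filter level of 5 RPM. The closest member to that profile, which each member helps to set, was miR-503-5p (0.85), and the least close was miR-542-3p (0.39).

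Summed by group, the seed relatives were far more abundant than the members related to them. Not each relative was, since miR-497-5p (33.3 to 372 RPM) lay below miR-322-5p. Of the AGCAGC group, miR-16-5p averaged 6680 RPM, and miR-322-5p and miR-503-5p together were 3.27 to 9.10% of the group's summed RPM. That share was 3.27 to 3.601% in HF+CR and 5.74 to 9.10% in LF+CR, with no overlap. In HF+CR against LF+CR, 2 of 5 seed relatives were called higher, miR-16-5p (0.80, limma adjusted p = 0.0191) and miR-15a-5p (0.63, limma adjusted p = 0.0372), while miR-322-5p was 0.46 lower and not called. Of all 351 tested miRNAs 32 were called higher there, and 6 after rescaling.

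In the diet average all 5 AGCAGC relatives lay above 0, with 3 called higher, miR-16-5p (0.46), miR-15b-5p (0.77) and miR-195a-5p (0.76). miR-351-5p was 0.788 to 1.69% of the RPM of miRNAs with the CCCUGAG seed. Of its 2 relatives, miR-125b-5p was called higher in the average (0.66, limma adjusted p = 0.0111) and miR-125a-5p was not (-0.27). In another X-linked cluster, in introns of Clcn5, 7 of 8 miRNAs lay above 0 in the average, with a median of 0.42 and 4 called higher. Of all 351 tested miRNAs, 264 lay above 0 and 25.1% were called higher. The counts of these relatives and of the Clcn5 cluster are before rescaling, which cut the higher calls of all miRNAs from 88 to 28.

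Among the other arms of the cluster, 3 were tested and 0 called in any tested comparison. In HF against LF miR-542-5p was 0.52 higher without overlap, described only. In the average of the diet differences miR-450b-3p was 0.40 higher (SE 0.17, limma adjusted p = 0.0956), miR-542-5p 0.29 higher and miR-450b-5p 0.13 lower.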

How the data were processed

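Small RNA libraries were made from total liver RNA by standard Illumina protocols, per the labels' protocols, and the submitters' processing notes name mm10, with the aligner, counting tool and miRNA annotation not given in the sources used here. The deposited values are RPM per miRNA, made by the authors. In each library all values are whole multiples (within 0.001 reads) of a step that makes the smallest listed value 2 reads, which gives the implied reads behind a value. No column was left unmapped.

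The members and all lists were chosen with earlier results of these data known. miRNAs with at least 5 RPM in at least 3 libraries (351 of 758) were fitted on log2(RPM + 1) with limma 3.58.1 (R 4.3.3), 1 coefficient per group over 18 libraries, a mean-variance trend, two-sided tests and Benjamini-Hochberg adjustment over the 351 miRNAs. Fold changes on this scale are understated for low miRNAs. HF against LF was not tested. Named were all 6 members, the 7 other arms, seed relatives that were called or most abundant, and the 5 nearest patterns. The test of diet differences between CR and Ex, and voom, the 2-library and shallow-library omissions were added after seeing the data. A count test with edgeR was planned and not run; voom on the implied reads was run in its place. The fit was tested on simulated data. Sequences and positions are from RefSeq (13 of 13 arms matched). Replicate numbers were not taken to pair the samples, since the labels state no pairing.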

Additional observations from a re-analysis of the deposited data

Results flagged for a closer look

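miR-322-5p was lower in HF+CR than in LF+CR and higher in HF+Ex than in LF+Ex, with every library of one group beyond every library of the other in both comparisons, which is why it is listed here. The difference between the 2 diet effects was -0.81 on the log2 scale (SE 0.22, 95% interval -1.26 to -0.35, unadjusted p = 0.00189, adjusted p = 0.0554 by limma over 351 miRNAs), and 2.85% of all tested miRNAs were called in this comparison. The comparison was chosen after its values were seen. With rescaled libraries the value under exercise was 0.12 (limma adjusted p = 0.682), down from 0.35, and the value under calorie restriction -0.79. Rescaling the libraries gave -0.91 (limma adjusted p = 0.0374), and limma voom on implied reads -0.81 (limma adjusted p = 0.0461). Leaving out 1 library gave -0.91 to -0.69 (limma adjusted p 0.0168 to 0.145).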

How the results depend on the processing

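The number of members called moved in these comparisons. In HF+CR against LF+CR it was 0, and 1 (miR-322-5p) with a filter of 50 RPM, with rescaled libraries, or without LF replicate 1 and HF+CR replicate 3, and 0 to 1 leaving out 1 library. In the average of the diet differences it was 2, and 1 with no filter, 0 rescaled and 1 with only the compared groups fitted. It was 1 without LF replicate 1 and HF+CR replicate 3, and 0 without LF+CR replicate 1 and HF+CR replicate 1. In these settings, in that order, all tested miRNAs called fell from 97 to 52, 57, 68, 83 and 1. Leaving out 1 library gave 0 to 2 members. Without the 3 shallowest libraries 1 HF+CR library is left, so no count is given. In HF+CR against HF the number of members called was 0, 1 without LF replicate 1 and HF+CR replicate 3, and 0 to 1 leaving out 1 library. In the added test of diet differences between CR and Ex it was 0, and 1 with a filter of 50 RPM, rescaled, with voom, or without LF replicate 1 and HF+CR replicate 3, and 0 to 1 leaving out 1 library. The causes were not tested. In the other comparisons it was 0 to 0 leaving out 1 library.

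Values that changed sign were all uncalled. Rescaling gave -0.10 for miR-322-3p in HF+CR against LF+CR, and -0.037 for miR-322-3p and -0.12 for miR-450a-5p in the average. Leaving out 1 library gave 0.0046 for miR-450a-5p in HF+Ex against LF+Ex (lowest -0.34), and up to 0.058 (lowest -0.18) for miR-542-3p in the average. Without LF+CR replicate 1 and HF+CR replicate 1, miR-542-3p was 0.0094 in HF+CR against LF+CR and 0.12 in the average, and miR-322-5p 0.051 in the average; without the 3 shallowest libraries miR-542-3p was 0.063 in the average. Of 37 further member values, 17 changed sign under some alternative, and all 37 intervals include 0.

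With the replicate number as a block, 2 members were called in the average and 0 in every other comparison; all tested miRNAs called in the average were 91 against 97. Deviations from the group means correlated at r above 0.1 in 14 of 45 same-numbered pairs and in 24 of 90 other pairs. In the mean, 7 of 18 libraries correlated best with their own number. The labels state no pairing, so the numbers were not taken to pair the samples. The HF against LF median of the members was 0.46, and 0.36 to 0.59 leaving out 1 library. A planned edgeR fit on recovered reads was not run, and voom was run in its place. The median r of the 15 pairs was 0.17, 0.18 with a pseudocount of 5 RPM, 0.15 rescaled and 0.10 with group means removed. It was 0.34 without the 2 libraries farthest from the median of the first-listed member of each pair. Depth limits the arms under about 2 RPM, which were not tested.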
